A study of Homo sapiens with 3 samples.

Results

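The genes described here are 6 targets of the transcriptional coactivator YAP: ANKRD1, CYR61 (now named CCN1), CTGF (now CCN2), THBS1, AMOTL2 and PMEPA1. They are 6 of the 18692 gene symbols listed in at least 1 of 3 single-cell RNA libraries. The group was put together by name around ANKRD1, whose level in the ldR-H460 library was already known to be 41.0-fold that in the H460 library, so the levels below are descriptions. H460 is a human cell line established from a lung cancer of the large-cell type. The series compares it, as the parental culture, with a mid-term derivative (mdR-H460) and a long-term derivative (ldR-H460) obtained in a reprogramming experiment. Per the labels' protocols, human fibroblasts irradiated at 60 Gy served as a feeder layer and as the source of conditioned Pluriton medium, and the cultures analysed were grown in flasks before loading. No transgene, drug or time of treatment is assigned to a library here, because the codes in the sample descriptions are not explained in the sources used. Each culture gave 1 library, so no difference between cultures has a replicate check or a test.

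YAP and its paralogue TAZ (encoded by WWTR1) shuttle between cytoplasm and nucleus. When the Hippo kinases LATS1 and LATS2 are active they phosphorylate both proteins and hold them in the cytoplasm. When the kinases are inactive, as in spread cells at low density or under tension, YAP and TAZ enter the nucleus, bind the TEAD family of DNA-binding proteins and switch on a set of target genes. CYR61, CTGF and ANKRD1 are the most widely used readouts of this activity. Several of the targets also respond to TGF-beta through SMAD proteins, to serum response factor and to AP-1, so a change in 1 of them is not specific to YAP.

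H460 gave 4531 cells, mdR-H460 gave 5151 and ldR-H460 gave 4956, with medians of 14685, 11736 and 12342.5 unique molecular identifiers (UMIs, each standing for 1 captured transcript) and 60468481 to 66624830 UMIs per library. Between 24 and 36 cell barcodes were shared by a pair of libraries. Each level is a CPM value, the summed UMIs of the gene per 1000000 UMIs of that library, with an exact Poisson 95% interval. These intervals, like all others below, cover counting error only and say nothing of the spread between cultures. The intervals of levels, means and ratios also treat each UMI as independent, so they leave out the spread between cells. Of 7 epithelial markers, KRT8 was at 459 to 625 CPM and KRT18 at 1079 to 1755 CPM, but KRT19 was at 1696 CPM in H460, 194 in mdR-H460 and 40.3 in ldR-H460, and KRT7 was at 57.8, 184 and 108 CPM. CDH1 was not listed in any library, EPCAM was at 0.132 to 0.347 CPM, and the list summed to 3301, 2777 and 1851 CPM. Of 15 fibroblast markers, 11 were listed in at least 1 library, and PDGFRA, THY1, POSTN and FAP were in none. COL1A2 and SPARC were listed only for ldR-H460, with 3 and 4 UMIs. DCN was listed only for H460. LUM was at 4.65 CPM in H460 and 0.135 in mdR-H460 and was not listed for ldR-H460. In the order H460, mdR-H460 and ldR-H460, FBN1 was at 4.53, 0.841 and 1.27 CPM. COL5A1 was at 2.73, 0.645 and 0.496 CPM and COL1A1 at 2.73, 2.16 and 1.14 CPM. COL3A1 was instead highest in ldR-H460, at 2.42, 0.465 and 3.18 CPM. Without VIM, which carcinoma lines also express, the fibroblast markers summed to 18.4 CPM in H460, 4.55 in mdR-H460 and 6.52 in ldR-H460. A filter used 7 fibroblast genes, COL1A1, COL1A2, COL3A1, DCN, LUM, PDGFRB and POSTN, of which 6 were listed in at least 1 library. FBN1 and COL5A1 were not part of it. The ratios of the 6 YAP target genes were recomputed over cells with no UMI of the filter genes, and the counts of genes past 2-fold below were unchanged. This left out 544 H460 cells (12.0%), 190 mdR-H460 cells (3.69%) and 257 ldR-H460 cells (5.19%). Of the cells left out, 45, 2 and 3 held 3 or more such UMIs. For ANKRD1 in ldR-H460 against H460 the log2 ratio was 5.36 with all cells and 5.35 without those cells.

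The promoter windows of 4 of the genes are shown because they hold the letters GGAATG that TEAD proteins are known to bind. Each window is the 250 bases before the annotated start in RefSeq (GRCh38.p14), written 5′ to 3′ on the strand of the gene, with GGAATG or its reverse complement CATTCC in capitals. The windows lie at chr10:90921088-90921337 (minus strand) for ANKRD1, chr6:131951373-131951622 (minus strand) for CTGF, chr15:39580829-39581078 (plus strand) for THBS1 and chr3:134374448-134374697 (minus strand) for a start of AMOTL2 inside the annotated gene. The ANKRD1 window overlaps the annotated gene, which spans to 90921276, so its RefSeq start also lies inside that gene.
ANKRD1: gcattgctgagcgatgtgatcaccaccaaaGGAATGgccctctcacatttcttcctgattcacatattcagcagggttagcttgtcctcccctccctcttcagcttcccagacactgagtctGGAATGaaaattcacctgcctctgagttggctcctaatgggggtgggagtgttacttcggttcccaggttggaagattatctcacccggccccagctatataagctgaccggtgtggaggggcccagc
CTGF: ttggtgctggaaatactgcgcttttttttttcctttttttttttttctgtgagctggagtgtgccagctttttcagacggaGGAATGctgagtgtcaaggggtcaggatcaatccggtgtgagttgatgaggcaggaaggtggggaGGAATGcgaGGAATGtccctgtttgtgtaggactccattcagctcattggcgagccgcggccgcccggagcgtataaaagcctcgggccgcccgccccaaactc
THBS1: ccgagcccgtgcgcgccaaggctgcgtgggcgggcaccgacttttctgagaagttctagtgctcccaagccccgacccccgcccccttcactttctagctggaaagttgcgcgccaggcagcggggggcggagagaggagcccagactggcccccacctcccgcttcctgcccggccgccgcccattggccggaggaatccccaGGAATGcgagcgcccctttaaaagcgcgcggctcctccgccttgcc
AMOTL2: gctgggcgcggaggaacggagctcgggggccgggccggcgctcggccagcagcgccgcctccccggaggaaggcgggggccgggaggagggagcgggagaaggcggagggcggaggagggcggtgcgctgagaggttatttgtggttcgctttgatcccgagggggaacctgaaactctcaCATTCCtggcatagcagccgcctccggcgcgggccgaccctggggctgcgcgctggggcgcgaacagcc
Positions of matches are given relative to the RefSeq start of the window. The CTGF window held 3 matches, which start at positions -169, -104 and -95. The ANKRD1 window held 2 matches, at -220 and -128. THBS1 had 1 match at -46, and AMOTL2 had 1 on the opposite strand at -69. Of all 35116 RefSeq windows of this length, 11.9% had at least 1 match, 0.940% had at least 2 and 0.0826% had at least 3. PMEPA1 has 4 annotated windows, none of which held the letters, and CYR61 was not matched to a window. On both strands the AP-1 letters TGANTCA were found once, in the ANKRD1 window (6.57% of all windows). The SMAD letters CAGACA were found in the ANKRD1 window, in 1 AMOTL2 window and in 1 PMEPA1 window (13.6% of all windows). The CArG box of serum response factor, present in 1.16% of all windows, was found in none. No matches overlapped. A match is a description of the letters and not evidence that a factor was bound in these cells.

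ANKRD1 encodes an ankyrin repeat protein best known from cardiac muscle, where it sits at the sarcomere and in the nucleus (chromosome 10, 90912096 to 90921276, GRCh38). Its level was 2.37 CPM (2.02 to 2.77) in H460, 11.6 (10.8 to 12.5) in mdR-H460 and 97.3 (94.8 to 99.8) in ldR-H460. The order of the cultures was thus H460, mdR-H460 and ldR-H460, with intervals that did not overlap. The mdR-H460 level was 4.90-fold (4.13 to 5.86) that of H460, and the ldR-H460 level was 8.36-fold (7.76 to 9.02) that of mdR-H460. To compare shares of cells, 5000 UMIs were drawn from each cell, which left out the 681 H460, 1271 mdR-H460 and 435 ldR-H460 cells that held fewer. ANKRD1 was then seen in 1.19% (0.876 to 1.59) of H460 cells, 4.74% (4.09 to 5.46) of mdR-H460 cells and 27.9% (26.6 to 29.2) of ldR-H460 cells (exact Clopper-Pearson 95% intervals). Over all cells without thinning the shares were 2.69%, 7.45% and 42.8%. The share that free RNA alone would give could not be measured, since no cell type that should lack these genes was present. Both the share of positive cells and the content of positive cells were higher in ldR-H460, where a positive thinned cell held 1.95 UMIs on average against 1.11 in H460 and 1.52 in mdR-H460. The 46 H460 cells with the most ANKRD1 UMIs held 51.6% of them, the leading 52 cells of mdR-H460 held 44.6% and the leading 50 of ldR-H460 held 14.7%. Such a share also depends on how few cells held any ANKRD1 UMI (2.69%, 7.45% and 42.8%). The highest count in a cell was 5 UMIs in H460, 33 in mdR-H460 and 49 in ldR-H460.

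CYR61 encodes a secreted matricellular protein of the CCN family that binds integrins and heparan sulphate (chromosome 1, 85580761 to 85583962). It stood at 106 CPM (104 to 109) in H460, 134 (131 to 136) in mdR-H460 and 172 (168 to 175) in ldR-H460. The order was the same as for ANKRD1 but the span was far smaller, 1.25-fold (1.22 to 1.29) from H460 to mdR-H460 and 1.61-fold (1.56 to 1.66) from H460 to ldR-H460. In thinned cells a CYR61 UMI was seen in 36.7%, 41.5% and 48.6% of cells, and in all cells in 57.9%, 56.98% and 69.6%. CYR61 was therefore common in the parental culture, unlike ANKRD1.

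CTGF encodes a second CCN protein, a matrix-associated cofactor of TGF-beta in wound repair and fibrosis (chromosome 6, 131948176 to 131951373). Its level was 155 CPM (152 to 158) in H460, 49.3 (47.6 to 51.0) in mdR-H460 and 114 (111 to 117) in ldR-H460. CTGF thus had its lowest level in mdR-H460, 3.14-fold (3.02 to 3.27) below H460, and the ldR-H460 level was 1.36-fold (1.32 to 1.40) below H460. From mdR-H460 to ldR-H460 the level was 2.31-fold (2.22 to 2.41) higher. In thinned cells it was seen in 43.6%, 18.6% and 34.7% of cells, and in all cells in 61.0%, 31.6% and 53.9%. The 2 CCN genes therefore differed in order across the cultures: over all cells, CYR61 was higher and CTGF lower in both derivatives than in H460. Among cells called G2/M the direction of CTGF in ldR-H460 turned, with 89.2 CPM (85.6 to 92.9) against 65.4 (61.4 to 69.6) in H460. In the same class CYR61 was 91.6 CPM in mdR-H460 and 93.6 in H460, with overlapping intervals. Over cells called G1 alone the CTGF log2 ratio of ldR-H460 to mdR-H460 was 0.97 in place of 1.21, just under a 2-fold difference.

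THBS1 encodes thrombospondin-1, a secreted glycoprotein that activates latent TGF-beta and binds CD36 and CD47 (chromosome 15, 39581079 to 39599466). It was nearly absent from the UMIs, with 53 in H460, 14 in mdR-H460 and 222 in ldR-H460. These counts correspond to 0.801 CPM (0.5998 to 1.05), 0.210 CPM (0.115 to 0.353) and 3.67 CPM (3.20 to 4.19). Like CTGF it was lowest in mdR-H460, 3.81-fold (2.08 to 7.44) below H460, but in ldR-H460 it was 4.59-fold (3.38 to 6.31) above H460. No library reached 10 CPM, the minimum for the fold counts below. Among G1-called cells THBS1 was 1.52-fold lower in mdR-H460 and 16.8-fold higher in ldR-H460 than in H460, on 5 and 81 UMIs against 10 in H460. In thinned cells mdR-H460 was 8.57-fold below H460, and THBS1 was 42.1-fold higher in ldR-H460 than in mdR-H460 in place of 17.5-fold, with 2 positive mdR-H460 cells. THBS1 was seen in 0.416% of thinned cells in H460 (16 cells), 0.0515% in mdR-H460 (2 cells) and 2.06% in ldR-H460 (93 cells), and in 1.15%, 0.272% and 4.10% of all cells. FSIP1, whose exons overlap THBS1 on the opposite strand, was at 0.660 to 1.42 CPM, and the labels do not say whether counting used strand.

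AMOTL2 encodes an angiomotin-like protein that binds YAP and holds it at junctions, a target that feeds back on the pathway (chromosome 3, 134355874 to 134375479). Its level was 15.0 CPM (14.1 to 15.9) in H460, 17.3 (16.3 to 18.3) in mdR-H460 and 25.0 (23.8 to 26.3) in ldR-H460. This is the order of ANKRD1 and CYR61, with ldR-H460 1.67-fold (1.54 to 1.81) above H460. The mdR-H460 level was 1.15-fold (1.06 to 1.26) that of H460, and among G2/M-called cells it was the lower of the 2, at 11.8 CPM (10.53 to 13.2) against 14.0 (12.2 to 15.97), with overlapping intervals. In thinned cells it was seen in 7.51%, 8.97% and 11.8% of cells, and in all cells in 18.6%, 17.9% and 24.7%.

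PMEPA1 encodes a membrane protein that sequesters SMAD2 and SMAD3 and is itself a strong target of TGF-beta (chromosome 20, 57648392 to 57711536). It stood at 16.1 CPM (15.2 to 17.1) in H460, 8.20 (7.52 to 8.91) in mdR-H460 and 1.54 (1.24 to 1.88) in ldR-H460. It was the only gene of the 6 whose level was lowest in ldR-H460, 10.48-fold (8.47 to 13.1) below H460. In mdR-H460 it was 1.97-fold (1.77 to 2.18) below H460 over all cells but 1.08-fold below among cells called G1 (19.96 against 21.5 CPM), where the intervals overlapped. In thinned cells a UMI was seen in 8.42%, 5.05% and 0.841% of cells, and in all cells in 17.7%, 8.39% and 1.69%. The antisense gene NKILA, which overlaps PMEPA1, had 4 to 10 UMIs per library.

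Counted at 2-fold and 10 CPM in the higher library of a pair, 1 of 5 genes was higher in mdR-H460 than in H460 (ANKRD1) and 1 was lower (CTGF), where 1.83% and 7.04% of all 6402 genes compared were higher and lower. For ldR-H460 against H460, 1 of 5 was higher (ANKRD1; background 3.33% of 6556 genes) and 1 was lower (PMEPA1; background 7.98%). For ldR-H460 against mdR-H460, 2 of 4 were higher (ANKRD1 and CTGF; background 2.57% of 6189 genes) and 0 were lower (background 3.09%). The genes were chosen with these ratios known, so nothing is read from the counts. The median log2 ratio of the 6 genes was -0.38, 0.71 and 0.87 in these 3 pairs, beside medians of all genes at 10 CPM of -0.10, -0.12 and 0.00. The members did not move as a block: in ldR-H460 against H460, 4 were higher and 2 lower, over a log2 range from -3.39 to 5.36.

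**Figure D1:**
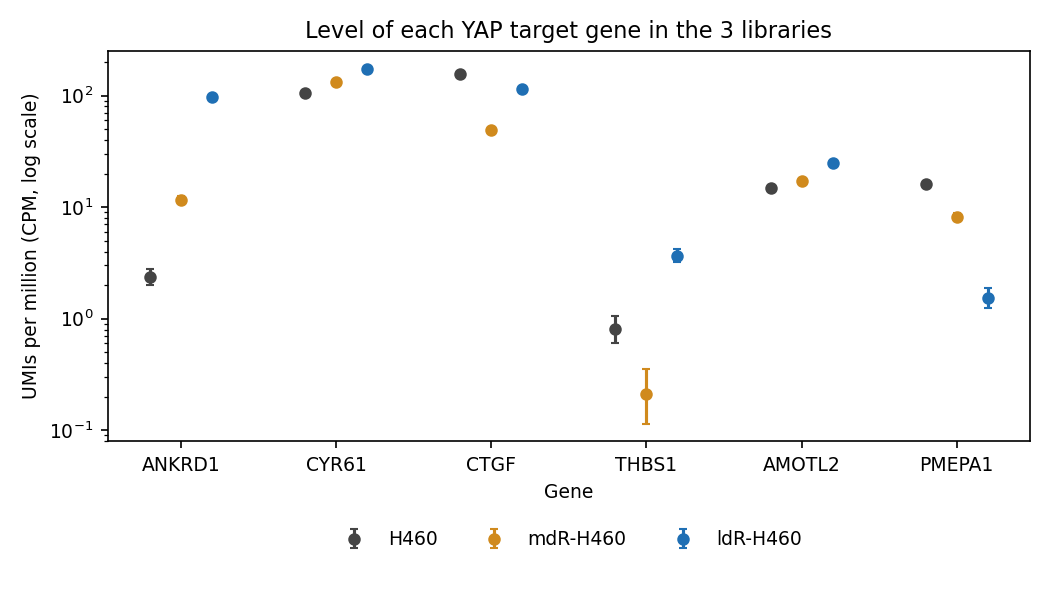
Level of each of the 6 genes in H460 (dark grey), mdR-H460 (orange) and ldR-H460 (blue), as CPM on a log axis. Points are 1 library each and bars are exact Poisson 95% intervals, often smaller than the point. ANKRD1 runs from 2.37 to 97.3 CPM, CTGF and THBS1 are lowest in mdR-H460, and PMEPA1 is lowest in ldR-H460 at 1.54 CPM.

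The receptors and relatives of the secreted members were taken from lists at 1 CPM in at least 1 library and counted at 1.5-fold. At that threshold 6.21% of all genes compared were higher and 22.5% lower in mdR-H460 than in H460. The corresponding shares were 11.6% and 21.9% in ldR-H460 against H460, and 14.6% and 10.6% in ldR-H460 against mdR-H460. Of the integrins and other receptors that bind CYR61, CTGF or THBS1, 1 of 12 was higher and 6 were lower in mdR-H460 than in H460. In ldR-H460, 1 of 13 was higher and 7 were lower than in H460. ITGA6, the laminin-binding integrin subunit that CCN proteins also engage, was at 29.8 CPM in H460, 7.02 in mdR-H460 and 9.84 in ldR-H460. The heparan sulphate proteoglycan SDC4 was at 9.31, 15.0 and 3.52 CPM in the same order. CD36, a THBS1 receptor, was low in all 3 but 5.56-fold (3.04 to 11.0) higher in ldR-H460 than in H460, on 66 and 13 UMIs. Among the relatives, the CCN gene NOV was 5.31-fold (3.55 to 8.20) lower in mdR-H460 and 5.38-fold (3.53 to 8.49) lower in ldR-H460 than in H460. WISP2, another CCN gene, was at 10.2, 12.8 and 6.09 CPM. ANKRD2, the closest relative of ANKRD1 on the list, was at 1.04 CPM in H460, 3.26 in mdR-H460 and 14.4 in ldR-H460, which is 13.8-fold (10.8 to 17.9) above H460.

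Other YAP and TAZ target genes were described from a signature list without the 6 genes. The shares of all genes past 1.5-fold are those given above for the receptors. Of its 18 genes, 2 were at least 1.5-fold higher and 10 lower in mdR-H460 than in H460, with a median log2 ratio of -0.70 against -0.17 for all genes at 1 CPM. In ldR-H460 against H460, 3 were higher and 5 lower (median -0.35, all genes -0.13). In ldR-H460 against mdR-H460, 8 were higher and 3 lower (median 0.42, all genes 0.08). Among cells called G1 these list medians were -0.20, -0.23 and 0.22, beside -0.12, -0.20 and -0.05 for all genes at 10 CPM. Several of these genes were lowest in mdR-H460, as were CTGF and THBS1. IGFBP3, which binds insulin-like growth factors, was at 130 CPM in H460, 32.2 in mdR-H460 and 88.6 in ldR-H460. The transmembrane BMP regulator CRIM1 was at 19.2, 7.08 and 26.0 CPM, above H460 in ldR-H460 like THBS1 and unlike CTGF. The phosphatase gene PTPN14, a YAP inhibitor, was at 43.5, 11.8 and 18.7 CPM. NT5E, the ecto-nucleotidase CD73, instead had the order of PMEPA1, at 13.9, 5.10 and 2.27 CPM. TGFB2 had 14.4, 6.62 and 5.77 CPM, and F3, the coagulation factor receptor, was at 1.84, 1.80 and 0.761 CPM.

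Upstream of the targets, of 22 Hippo pathway, YAP, TAZ and TEAD genes, 0 were higher and 13 lower by 1.5-fold in mdR-H460 than in H460. In ldR-H460 against H460, 0 were higher and 5 lower. In ldR-H460 against mdR-H460, 4 were higher and 0 lower. The shares of all genes higher and lower were 6.21% and 22.5%, 11.6% and 21.9%, and 14.6% and 10.6% in these 3 pairs. YAP1 was at 9.26, 8.21 and 10.48 CPM across the libraries in that order, and WWTR1 was at 45.8, 32.2 and 37.7 CPM, all within 1.5-fold. TEAD1 was at 19.7, 11.3 and 18.9 CPM and TEAD4 at 24.0, 20.7 and 25.0 CPM. The kinase gene LATS2, itself a YAP target and present in both lists, was at 13.2, 8.17 and 15.0 CPM. The scaffold gene WWC2 was at 12.4, 4.02 and 12.8 CPM. AMOTL1, the paralogue of AMOTL2, was at 5.92, 1.76 and 1.54 CPM, lower in both derivatives than in H460, whereas AMOTL2 was higher in both over all cells. VGLL4, which competes with YAP for TEAD, was 1.92-fold (1.75 to 2.10) lower in ldR-H460 than in H460. These are transcript levels, and the location and phosphorylation of YAP were not measured.

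Of 20 genes of TGF-beta signalling and its SMAD targets, 4 were higher and 6 lower by 1.5-fold in mdR-H460 than in H460. In ldR-H460, 4 were higher and 5 lower than in H460. Of all genes, 6.21% were higher and 22.5% lower in mdR-H460, and 11.6% higher and 21.9% lower in ldR-H460. The shares of the list that were lower were not far from these, so nothing is read from them. INHBA, the activin subunit gene, was at 23.1 CPM in H460, 1.501 in mdR-H460 and 0.281 in ldR-H460, the same order as PMEPA1 and 82.1-fold (51.1 to 141) lower in ldR-H460 than in H460. The receptor gene TGFBR1 had that order too, at 30.2, 9.73 and 7.34 CPM. SMAD3, the transcription factor that PMEPA1 binds, ran the other way, at 8.60, 16.9 and 30.4 CPM. The inhibitory SMAD7 was at 0.755, 1.70 and 2.58 CPM. TGFB3 was 6.47-fold (4.48 to 9.60) higher in ldR-H460 than in H460. TGFBI, the most abundant TGF-beta target named here, was at 362, 442 and 208 CPM.

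Of 17 genes of the actin cytoskeleton and serum response factor, 2 were higher and 6 lower by 1.5-fold in mdR-H460 than in H460. In ldR-H460, 4 were higher and 7 lower than in H460. The shares of all genes higher and lower were 6.21% and 22.5% in mdR-H460, and 11.6% and 21.9% in ldR-H460. The tropomyosin genes parted, with TPM2 at 30.4, 197 and 258 CPM and TPM1 at 168, 52.6 and 52.0 CPM. TAGLN2 was 3.56-fold (3.45 to 3.68) lower in ldR-H460 than in H460. Of 16 immediate early genes, 1 was higher and 4 were lower in mdR-H460, and 1 was higher and 9 were lower in ldR-H460. The share of this list that was lower in mdR-H460 was near that of all genes. The median log2 ratio of the list in mdR-H460 against H460 was -0.34, but 0.08 with equal weight per cell and 0.02 in cells called G1. Between ldR-H460 and mdR-H460 it was -0.37, but 0.18 without the cells high in DDIT3, a stress response gene, and in ldR-H460 against H460 it was -0.74 with those cells and -0.43 without. JUN, a subunit of AP-1, was 2.70-fold (2.53 to 2.89) lower in ldR-H460 than in H460, and KLF2 was 5.29-fold (4.88 to 5.74) lower. NR4A1 followed the order of CTGF, at 86.7, 34.1 and 80.2 CPM.

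**Figure D2:**
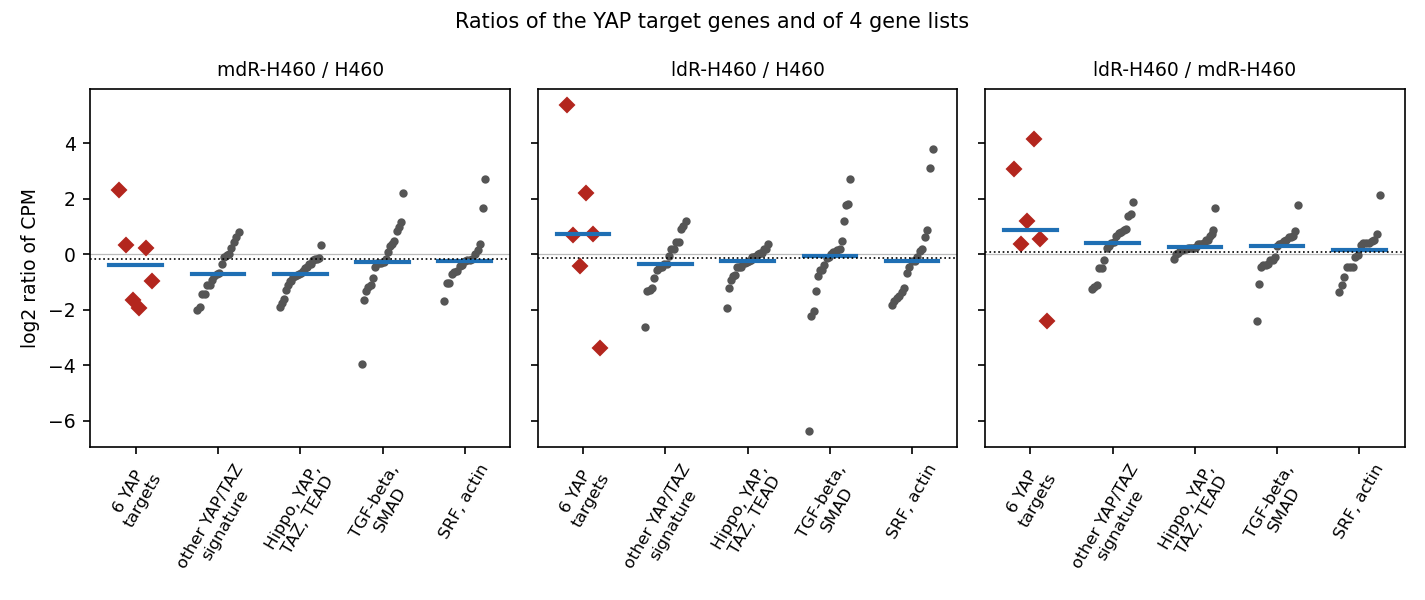
Log2 ratios of CPM for the 6 YAP target genes (red diamonds, in the order ANKRD1, CYR61, CTGF, THBS1, AMOTL2, PMEPA1) and for the genes of 4 lists (grey points, sorted), in the 3 pairs of libraries. Blue bars are medians and the dotted line is the median of all genes at 1 CPM. The 6 genes span from -3.39 to 5.36 in ldR-H460 against H460, while the other YAP/TAZ signature genes have a median of -0.35.

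Co-expression was then examined from cell to cell within each library, over cells thinned to 5000 UMIs. These correlations are descriptions. The cells of a library share that library, and low counts keep any correlation small. Of the 15 pairs of the 6 genes, 1 had a Spearman correlation of 0.1 or more in H460 (3850 cells), 4 in mdR-H460 (3880 cells) and 3 in ldR-H460 (4521 cells). CYR61 and CTGF were correlated in every library, at 0.17, 0.18 and 0.28, although over all cells their levels ran in opposite directions between H460 and the derivatives. ANKRD1 and CYR61 had 0.07 in H460, where 46 cells held an ANKRD1 UMI, 0.17 in mdR-H460 and 0.27 in ldR-H460. Thinned to 2500 UMIs, the same pair had 0.01, 0.10 and 0.18. ANKRD1 and CTGF had 0.07, 0.10 and 0.19, and at 2500 UMIs 0.02, 0.04 and 0.12. The pair CYR61 and AMOTL2 had 0.06, 0.12 and 0.10, the last rounded up from just under the threshold. Some mdR-H460 values were lower without the DDIT3-high cells described below. ANKRD1 then had 0.12 with CYR61 and 0.07 with CTGF, and CYR61 had 0.08 with AMOTL2 and 0.17 with CTGF. With another random thinning of mdR-H460, CYR61 and AMOTL2 had 0.08, and ANKRD1 and AMOTL2 had 0.11 in place of 0.08. In ldR-H460, THBS1 had 0.09 with CYR61 and 0.08 with ANKRD1, and among cells called G1 these were 0.19 and 0.16. In ldR-H460, 833 cells held both ANKRD1 and CYR61, where 612.8 would do so if the genes were unlinked. In the same library 979 cells held both CYR61 and CTGF, where 762.0 would if unlinked. In H460, 30 cells held both ANKRD1 and CYR61, against 16.9 if unlinked, and in mdR-H460 134 cells did, against 76.4. For this pair the observed number was 1.78-fold the unlinked one in H460, 1.75-fold in mdR-H460 and 1.36-fold in ldR-H460. This ratio was thus lowest in ldR-H460, where the correlation was highest. The share of thinned cells with an ANKRD1 UMI also differed (1.19%, 4.74% and 27.9%), and its part in the correlations was not tested.

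**Figure D3:**
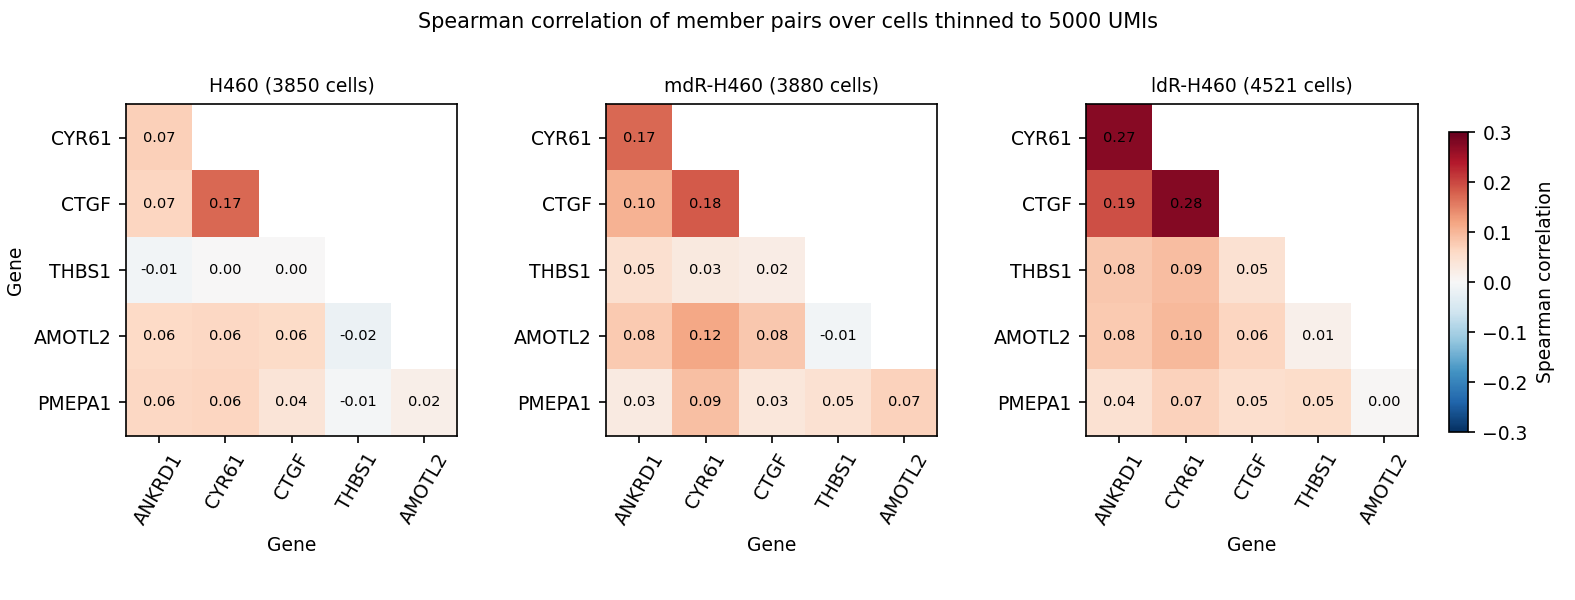
Spearman correlation of each pair of the 6 genes over cells thinned to 5000 UMIs, in H460, mdR-H460 and ldR-H460 (colour scale from -0.3 to 0.3). The highest values are those of CYR61 with CTGF (0.28) and of ANKRD1 with CYR61 (0.27) in ldR-H460, and the highest pair with THBS1 is CYR61 in ldR-H460 (0.09).

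Set among all genes with a UMI in at least 5% of the thinned cells, CYR61 ranked 2 for correlation with ANKRD1 in H460 (of 6135 genes), in mdR-H460 (of 5597) and in ldR-H460 (of 5785). CTGF ranked 6, 40 and 7 in the same libraries. For CTGF in ldR-H460, CYR61 ranked 1 and ANKRD1 ranked 6. AMOTL2 ranked 11, 116 and 122 for ANKRD1, at correlations of 0.06, 0.08 and 0.08, so its better rank in H460 was not a higher correlation. The H460 ranks for ANKRD1 rest on 46 cells with an ANKRD1 UMI, and the highest correlation there was 0.08. A correlation of 0.1 or more with ANKRD1 was reached by 0% of those genes in H460, 0.786% in mdR-H460 and 1.12% in ldR-H460. For CYR61 the shares were 0.212%, 1.72% and 1.43%, and for CTGF 0.685%, 0.804% and 0.933%. For AMOTL2 they were 0%, 0.232% and 0.0519%, for PMEPA1 0.0489%, 0.661% and 0.0518%, and for THBS1 0%, 0% and 0.0173%.

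The genes most like each member were named in the library where that member was highest. For ANKRD1 in ldR-H460 they were TMSB4X, which encodes the actin-sequestering thymosin beta-4 (0.36), CYR61 (0.27) and the calcium-binding S100A6 (0.23). For CYR61 they were TMSB4X (0.36), CTGF (0.28) and ANKRD1 (0.27). TMSB4X also led for AMOTL2 (0.12), ahead of the defensin gene DEFB1 and fibronectin (FN1), and for THBS1 (0.11), ahead of CYR61 and FN1. In H460, CTGF was most like the keratin gene KRT19 (0.23), the quinone reductase NQO1 (0.19) and the chemokine CXCL8 (0.19). PMEPA1 in H460 was most like S100A6 (0.13), SAT1 (0.10) and the nuclear RNA MALAT1 (0.10). With another random thinning, 10 of these 18 placements stayed among the leading 3 and 17 among the leading 10; FN1 for THBS1 went to rank 71.

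The same link can be read as levels. In ldR-H460, cells with 0, 1, 2 and 3 or more ANKRD1 UMIs per 5000 numbered 3260, 735, 270 and 256. Their mean CYR61 count was 0.726 (0.697 to 0.756), 1.18 (1.10 to 1.26), 1.82 (1.66 to 1.99) and 2.25 (2.07 to 2.44) UMIs per 5000. CYR61 was thus higher in each successive class. Mean CTGF was 0.485, 0.712, 1.17 and 1.34 UMIs per 5000 in the same classes. The CTGF intervals of the last 2 classes overlapped (1.04 to 1.30 and 1.21 to 1.49). Mean AMOTL2 was 0.110, 0.155, 0.211 and 0.199 UMIs, and the intervals of the last 3 classes overlapped. Mean THBS1 was 0.0153, 0.0150, 0.0556 and 0.0859 UMIs, with overlapping intervals in the first 2 and in the last 2 classes. In mdR-H460 the same classes held 3696, 132, 31 and 21 cells, with mean CYR61 counts of 0.680, 1.30, 2.58 and 3.90 UMIs. The last 2 of these had overlapping intervals (2.05 to 3.21 and 3.11 to 4.85). In H460 the classes above 0 held 43, 1 and 2 cells. The 43 cells with 1 ANKRD1 UMI had 1.19 CYR61 UMIs (0.883 to 1.56) against 0.574 (0.550 to 0.599) in cells with none. Their PMEPA1 count was 0.349 (0.195 to 0.575) against 0.0946 (0.0851 to 0.105).

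**Figure D4:**
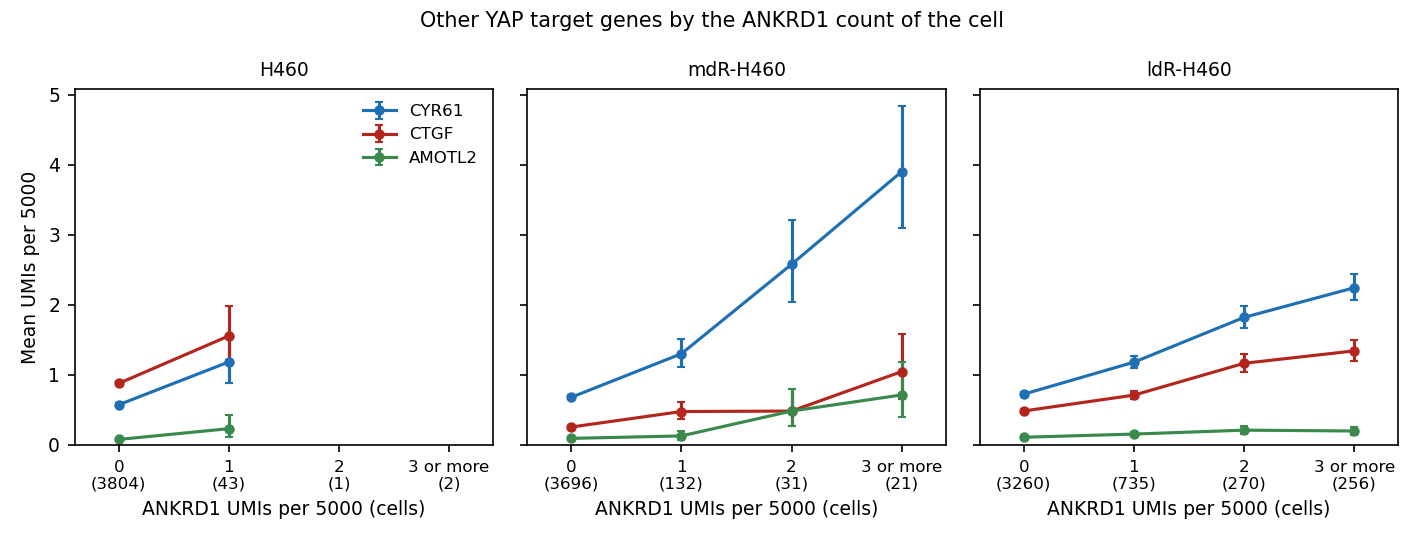
Mean UMIs per 5000 of CYR61 (blue), CTGF (red) and AMOTL2 (green) in cells grouped by their ANKRD1 UMIs per 5000, with the number of cells in brackets. Bars are exact Poisson 95% intervals from the summed UMIs of a class, which leave out the spread between cells. Classes under 20 cells are not drawn. In ldR-H460 mean CYR61 goes from 0.726 to 2.25 UMIs and mean CTGF from 0.485 to 1.34 UMIs.

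Cell cycle phase moved with these genes. Cells called G1 made up 35.1% of thinned cells in H460, 34.0% in mdR-H460 and 18.9% in ldR-H460, and G2/M-called cells 20.5%, 32.8% and 40.0%. ANKRD1 in ldR-H460 was at 172 CPM (164 to 181) in G1-called cells, 94.1 (90.3 to 98.0) in S and 71.4 (68.2 to 74.7) in G2/M. In mdR-H460 it was at 29.1, 7.39 and 4.97 CPM. The 4.90-fold ratio of mdR-H460 to H460 was 10.3-fold among G1-called cells, where H460 had 2.83 CPM. In S and G2/M, H460 had 2.29 and 1.80 CPM. CTGF in H460 was at 249 CPM (242 to 256) in G1, 139 (135 to 143) in S and 65.4 (61.4 to 69.6) in G2/M, and in ldR-H460 at 173, 112 and 89.2 CPM. CYR61 in mdR-H460 was at 221, 118 and 91.6 CPM, and in H460 at 123, 102 and 93.6 CPM, so in G2/M-called cells the 2 libraries had overlapping intervals. PMEPA1 in mdR-H460 was at 19.96, 4.54 and 3.44 CPM, and in H460 at 21.5, 13.6 and 13.1 CPM. All 6 genes were highest in G1-called cells in every library, except THBS1 in H460 (0.505, 0.773 and 1.16 CPM on 10, 23 and 18 UMIs). For ANKRD1 in H460 the G1 interval (2.14 to 3.67 CPM) overlapped those of S (1.77 to 2.90) and G2/M (1.20 to 2.61). THBS1 in mdR-H460 had 5, 5 and 3 UMIs, also with overlapping intervals. For PMEPA1 in ldR-H460 the G1 interval (1.70 to 3.87) overlapped that of S (0.892 to 1.84). Median depth also differed by phase, from 9914.5 UMIs in G1 to 19622.5 in G2/M in mdR-H460, and the part of phase or depth in the ratios between cultures was not tested. The phases are calls from gene scores and not measurements of DNA content.

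**Figure D5:**
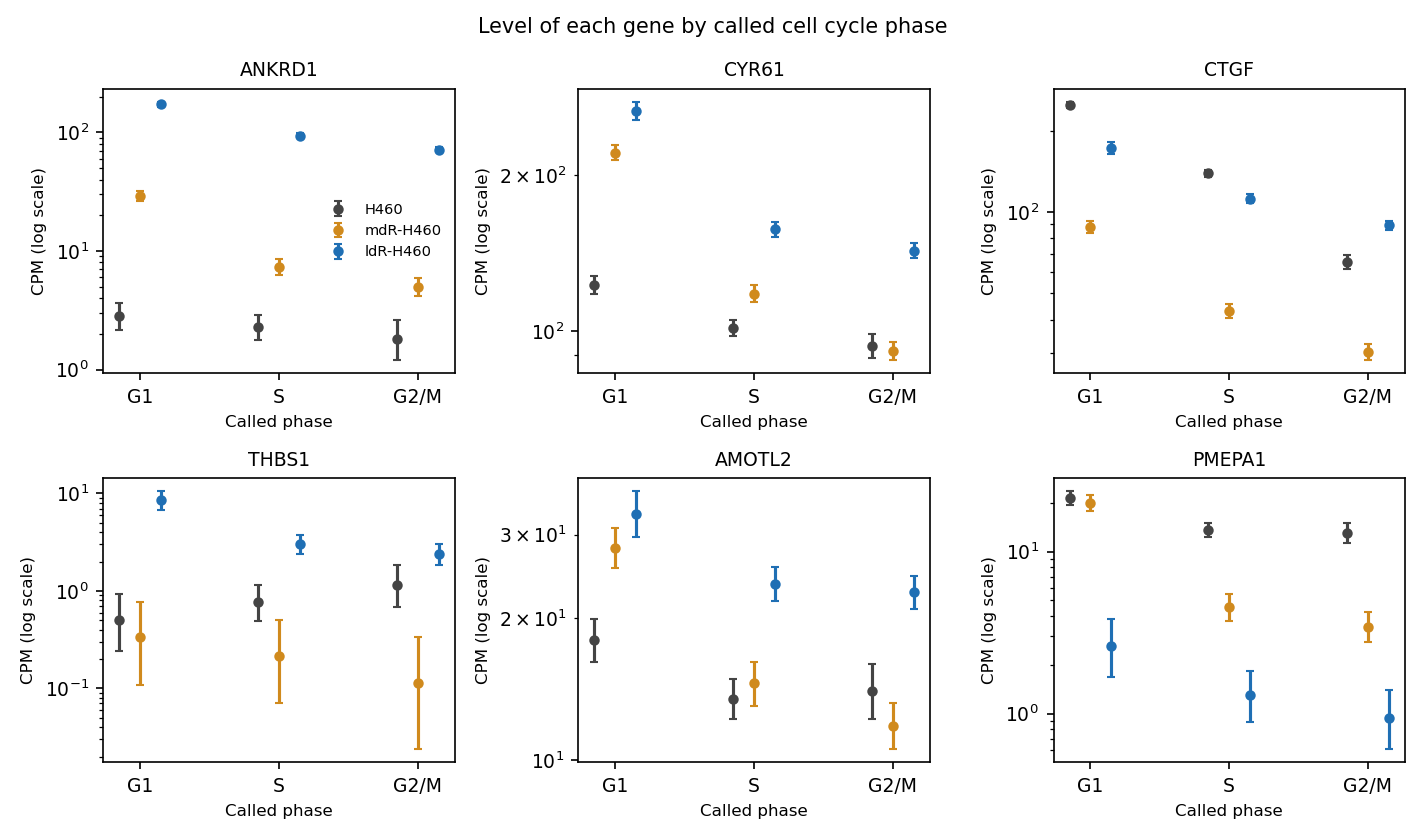
CPM of each gene (log axes that differ between panels) in cells called G1, S or G2/M in H460 (dark grey), mdR-H460 (orange) and ldR-H460 (blue), with exact Poisson 95% intervals. ANKRD1 in ldR-H460 goes from 172 CPM in G1 to 71.4 in G2/M, and CTGF in H460 from 249 to 65.4.

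A small set of cells with high DDIT3, the transcription factor CHOP of the integrated stress response, held 24.8% of the ANKRD1 UMIs of mdR-H460. This set was chosen after the values were seen, as cells in which DDIT3 took 0.05% or more of the UMIs. It held 45 cells in H460, 142 in mdR-H460 (2.76% of cells) and 1 in ldR-H460. In mdR-H460 these cells had 190 CPM of ANKRD1 (164 to 219) against 8.88 (8.18 to 9.64) in the other cells, 21.4-fold (18.1 to 25.3) higher. The other members were also higher in them. AMOTL2 was 6.94-fold (5.65 to 8.45), PMEPA1 6.85-fold (5.04 to 9.13), CTGF 4.38-fold (3.79 to 5.04) and CYR61 3.90-fold (3.56 to 4.27) higher, and THBS1 had 0 UMIs. In H460 the 45 cells had 23.5 CPM of ANKRD1 on 10 UMIs, 10.51-fold (4.94 to 19.9) the level of the rest, and PMEPA1 was 9.21-fold (6.98 to 12.0) higher. The other folds in H460 were smaller, 3.34 (2.06 to 5.14) for AMOTL2, 2.63 (2.17 to 3.16) for CYR61 and 1.91 (1.59 to 2.27) for CTGF. THBS1 had 0 UMIs there. The DDIT3-high cells were shallower than the rest, with medians of 6624 against 12002 UMIs in mdR-H460. Without them ANKRD1 in mdR-H460 was 8.88 CPM, under the 10 CPM minimum, so that ANKRD1 was no longer counted as higher than in H460, although the log2 ratio was still 1.99. In ldR-H460 the 97.3 CPM of ANKRD1 did not depend on such cells, since the single DDIT3-high cell held none of its UMIs.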

How the data were processed

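The 3 libraries were made with Chromium 3′ reagents from suspensions aimed at 5000 cells each, per the labels' protocols. The deposited values are raw UMI counts, 1 table of gene symbols by cells for each library. Per the submitters' processing notes, Cell Ranger 3.0.2, Seurat 3.0 and GRCh38 were used; what each did and which annotation was used are not stated there. The libraries held 60468481 to 66624830 UMIs, and 14638 cells in all equals the number stated. Symbols not listed in a table were set to 0, and a floor of 3 UMIs per library (0.0450 to 0.0496 CPM) served for bounds. UMIs were summed over cells and scaled to CPM. Levels have exact Poisson, shares exact Clopper-Pearson and ratios exact binomial-based 95% intervals. With 1 library per group no test was run, and no doublet caller was applied. Cells were thinned to 5000 UMIs without replacement, and phases were called on them with scanpy 1.11.5. All genes reaching 10 CPM in either library of a pair were counted at 2-fold, and lists at 1 CPM and 1.5-fold. Spearman correlations were computed with Python 3.11.15, numpy 2.4.6 and scipy 1.17.1. Only the fold calls, on simulated summed counts, and the Spearman correlation, on simulated pairs, were tested with known answers.

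The members, lists, thresholds and alternatives were chosen with earlier results of these data known. The text names the 6 members, for each the 3 most alike genes in the library of its highest CPM, and up to 4 genes per list with the largest ratio in each pair. 1 gene that this rule names is not reported here. YAP1, WWTR1, TEAD4 and SMAD7, outside that rule, were named after their values were seen, as was the DDIT3 split. The TGF-beta, Hippo and YAP/TAZ lists share LATS2, PTPN14 and TGFB2, and ANKRD2 is in 2 lists. Endothelial and leukocyte markers summed to at most 0.525 and 4.23 CPM. Alternatives were edgeR 4.0.16 TMM factors, DESeq2 1.42.0 size factors, library totals that leave out mitochondrial and ribosomal protein genes, equal weight per cell, thinned cells, cell subsets, other thresholds, other thinning depths and Pearson correlation. Positions come from a GENCODE annotation of GRCh38 matched by symbol, and promoter windows were matched for 5 of 6 genes in RefSeq.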

Additional observations from a re-analysis of the deposited data

How the results depend on the processing

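No replicate could be left out, and each statement rests on 1 library per culture. No paired analysis was possible because each group has 1 library and the labels carry no replicate numbers. None of the 18 log2 ratios of the 6 genes changed sign under the 11 alternatives of scaling and cell choice, which include cells called G1 but not cells called S or G2/M; among G2/M-called cells the ratios of CTGF in ldR-H460 and of CYR61 and AMOTL2 in mdR-H460 to H460 turned. ANKRD1 ranged from 1.99 to 3.37 for mdR-H460 against H460 and from 5.16 to 5.93 for ldR-H460 against H460, and PMEPA1 from -1.02 to -0.11 and from -3.56 to -3.04. The counts of the 6 genes past 2-fold were small and moved more easily. PMEPA1 was the 1 gene lower in ldR-H460 than in mdR-H460 with totals without mitochondrially encoded and ribosomal protein genes, equal weight per cell, thinned cells, cells called G1 and no CPM minimum. In ldR-H460 against H460 the number higher was 2 in cells called G1, 2 with no CPM minimum and 3 at 1.5-fold. In ldR-H460 against mdR-H460 it was 1 in cells called G1. In mdR-H460 against H460 the number lower was 2 with no CPM minimum, 2 at 1.5-fold and 2 without DDIT3-high cells, and the number higher was 0 without DDIT3-high cells, an alternative added after seeing the data. Over all genes, totals without mitochondrially encoded and ribosomal protein genes gave 348 higher in ldR-H460 than in H460 and 277 higher than in mdR-H460 (218 and 159 in the main count). In cells called G1, 266 were higher and 374 lower in ldR-H460 than in mdR-H460 (191 lower in the main count). With no CPM minimum the numbers higher and lower were 1028 and 2393 for mdR-H460 against H460, 1520 and 2537 for ldR-H460 against H460, and 1477 and 1369 for ldR-H460 against mdR-H460. At 1.5-fold they were 295 and 1100, 562 and 1242, and 552 and 624. TMM and DESeq2 factors moved the median log2 ratio of all genes in mdR-H460 against H460 from -0.10 to 0.10 and 0.09, and the higher share of genes past 2-fold from 20.6% to 35.5% and 34.9%. In ldR-H460 against H460 that share went from 29.4% to 40.4% and 38.9%. In ldR-H460 against mdR-H460 it went from 45.4% to 39.0% with TMM factors, 38.2% with DESeq2 factors and 38.1% with equal weight per cell. Totals without mitochondrially encoded and ribosomal protein genes instead gave 56.3% in that pair. The median log2 ratio of all genes there went from 0.00 to -0.07 with TMM and with DESeq2 factors. The median of the TGF-beta list in ldR-H460 against H460 was -0.06 in the main count but 0.06 with TMM and 0.05 with DESeq2 factors, and just above 0 with totals without mitochondrially encoded and ribosomal protein genes, in cells called G1 and without DDIT3-high cells. Cells called G1 also turned its median in ldR-H460 against mdR-H460 from 0.28 to -0.06, that of the receptors from 0.21 to -0.04 and that of the CCN and thrombospondin relatives from 0.69 to -0.76, and the relatives' median in mdR-H460 against H460 from -0.31 to 0.03. The immediate early list turned under equal weight per cell, in cells called G1 and without DDIT3-high cells. The YAP/TAZ signature median in mdR-H460 against H460 kept its sign but varied in size. It was -0.70 in the main count, -0.52 with TMM and with DESeq2 factors and -0.49 with equal weight per cell. In cells called G1 it was -0.20, and without DDIT3-high cells -0.78. The number of member pairs correlated at 0.1 or more was 6 in ldR-H460 with Pearson correlation, 1 in mdR-H460 at 2500 UMIs, 2 in H460 and 5 in ldR-H460 at 10000 UMIs, 2 in H460 and 8 in ldR-H460 in cells called G1, and 2 in mdR-H460 without DDIT3-high cells. The causes were not tested. Depth limits THBS1 in every library and PMEPA1 in ldR-H460.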

Other observations

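In mdR-H460, 820 cells (15.9%) gave 0.05% or more of their UMIs to FGG, the fibrinogen gamma chain, which is made by hepatocytes and in acute phase responses. PMEPA1 was 3.16-fold (2.61 to 3.82) higher in these cells than in the rest, at 21.0 against 6.64 CPM. ANKRD1 was 2.23-fold (1.87 to 2.66), CTGF 2.13-fold (1.958 to 2.32), CYR61 1.90-fold (1.80 to 2.01) and AMOTL2 1.44-fold (1.22 to 1.69) higher. The cells had a median of 6879 UMIs against 13266 in the rest, and the part of depth in these ratios was not tested. In H460 the 61 such cells held 0 ANKRD1 UMIs, which allows up to 4.04 CPM, beside 2.41 CPM in the rest. PMEPA1 was not higher in them, at 0.608-fold (0.277 to 1.16) the rest, nor was AMOTL2, at 0.801-fold (0.399 to 1.44). CYR61 was 1.88-fold (1.62 to 2.18) and CTGF 1.22-fold (1.04 to 1.42) the rest. The split was chosen after the values were seen.

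Cells under 1000 UMIs numbered 364 in H460, 585 in mdR-H460 and 218 in ldR-H460. They held 0, 4 and 18 ANKRD1 UMIs, which in ldR-H460 is 170 CPM (101 to 269) against 97.1 (94.7 to 99.7) in deeper cells.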
